A study of Dimocarpus longan with 9 samples.

Results

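The MADS-box genes of longan (*Dimocarpus longan*), an evergreen fruit tree of the soapberry family, are described here across 9 tissues. The study's list of 1611 transcription factor genes assigns 24 genes to the MIKC type and 85 to the M-type, 109 in all. Matching by gene ID placed 89 of them among the 30014 genes of the deposited expression table, namely all 24 MIKC genes and 65 M-type genes. The other 20 M-type genes had no row and were not analysed here. Membership rests on the type in that list alone, and no expression value was used to choose a gene.

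MADS-box proteins bind DNA through the MADS domain, for which the family is named. MIKC proteins, the type II class, add an intervening region, a keratin-like K domain through which the proteins pair, and a variable C-terminal region. In Arabidopsis and other flowering plants, combinations of MIKC proteins specify sepals, petals, stamens, carpels and ovules, and other MIKC proteins act in flowering time, fruit patterning, seed coat and root development. M-type genes, the type I class, lack the K domain. Their members with a known role in Arabidopsis act mostly in the female gametophyte and the endosperm, the nourishing tissue of the seed. Sequences were not used here, so whether a gene listed as M-type belongs to the type I class was not checked.

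RNA came from the cultivar “SJM” (sijimi), and 1 library was sequenced for each of the vegetative organs (leaf, stem and root), the floral stages (flower bud and flower) and the fruit (young fruit, seed, pulp, which is the edible aril, and pericarp, the rind). The labels give no treatment, plant age or number of plants pooled, and one tissue list in the study's methods has mature fruit where the labels have stem, so the label was followed. The reads were aligned to the genome of another longan cultivar. Values are FPKM (fragment counts scaled by transcript length and by the number of mapped fragments), which can be set side by side between genes. With 1 library per tissue there are no replicates, so no difference below carries an error or a test. In these bulk tissues, fewer cells of a type and less RNA per cell cannot be told apart.

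The 9 libraries had summed FPKM between 884469.8 and 1011820, and between 19322 genes (pulp) and 23118 genes (flower bud) above 0. Read counts were not used here, and the steps between low FPKM values put the depth of the libraries between 0.922 times (pulp) and 1.46 times (leaf) that of root. Median-ratio scaling would shift whole libraries by between −0.25 (pulp and flower) and 0.27 (young fruit) in log2, so that a difference between 2 tissues could move by up to 0.52, for young fruit against pulp. Of the tissue markers, the floral regulators Dlo_005438.1 (LFY type) and Dlo_010016.1 (NOZZLE type) were highest in flower bud but low there, at 1.09 and 2.07 FPKM. The summed FPKM of 6 YABBY genes, markers of lateral shoot organs, was lowest in root, at 5.33. The photosystem protein gene Dlo_000983.1 was at 115 FPKM in leaf and 123 in seed against 0.22 in root, but the chlorophyll a/b binding protein gene Dlo_012937.1 was at 1.5 in leaf and 16.7 in seed and so did not mark the leaf.

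MIKC genes were on the whole the abundant class and M-type genes the scarce one. Each of the 24 MIKC genes reached 1 FPKM in some tissue, 20 reached 10 FPKM and 9 reached 100 FPKM, and the median of their highest values was 56.4 FPKM. Of the 65 M-type genes, 61 were above 0 in some tissue against 95.3% of all genes, 32 reached 1 FPKM, 13 reached 10 and 2 reached 100, and the median highest value was 0.90 FPKM. The same median was 27.8 FPKM over the 1440 other transcription factor genes and 13.8 over all genes. There were 29 M-type genes above 0 that stayed below 1 FPKM everywhere, and 4 were listed at 0 in every tissue. A value above 0 in exactly 1 tissue was seen for 24 M-type genes (36.9%) and 1 MIKC gene, against 9.06% of all genes. Conversely, 5 M-type and 3 MIKC genes were above 0 in all 9 tissues, where 52.3% of all genes were.

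Flower bud held the most MADS-box genes above 0 and pulp the fewest, as was the case for all genes (77.0% above 0 in flower bud and 64.4% in pulp). MIKC genes above 0 numbered 22 in flower bud, 20 in flower, 17 in seed, 16 in young fruit, 15 in pericarp, 14 each in leaf and root, 12 in stem and 11 in pulp. For M-type genes the numbers were 27 in flower bud, 26 each in flower and young fruit, 23 each in seed and root, 21 each in leaf and stem, 19 in pericarp and 18 in pulp. At 1 FPKM or more, 18 MIKC genes remained in flower bud (75.0%) and 8 in pulp (33.3%), against 60.8% and 50.1% of all genes. M-type genes at that limit numbered 12 in flower bud and 4 in pulp, and were most numerous in root and seed, at 14 each.

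The summed FPKM of the 89 genes was highest in pericarp, at 2146, followed by young fruit at 2000.0, flower at 1728, flower bud at 1634, pulp at 1353, seed at 1300.0, leaf at 760.3, stem at 440.3 and root at 181. Floral and fruit tissues were thus all above the vegetative ones. As a share of the summed FPKM of all transcription factor genes, the family made up 0.497% in root, 0.729% in stem and 1.25% in leaf, and between 2.9% (pericarp) and 3.96% (pulp) in the 6 floral and fruit tissues. Few genes carried these sums, and the order of tissues rested in part on them. Without the top gene of each tissue, seed fell to 536.8, below leaf at 617.3. Pericarp fell to 904.9, below young fruit at 1374, flower bud at 1258 and flower at 1112. Dlo_003537.1 alone gave 57.8% of the MADS-box total in pericarp, Dlo_026285.1 gave 58.7% in seed, and 4 genes gave 90% of it in pulp where 16 were needed in root. M-type genes supplied 40.7% of the total in root and 29.2% in pulp, the latter mostly from 1 gene, but 3.44% in pericarp.

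**Figure D1:**
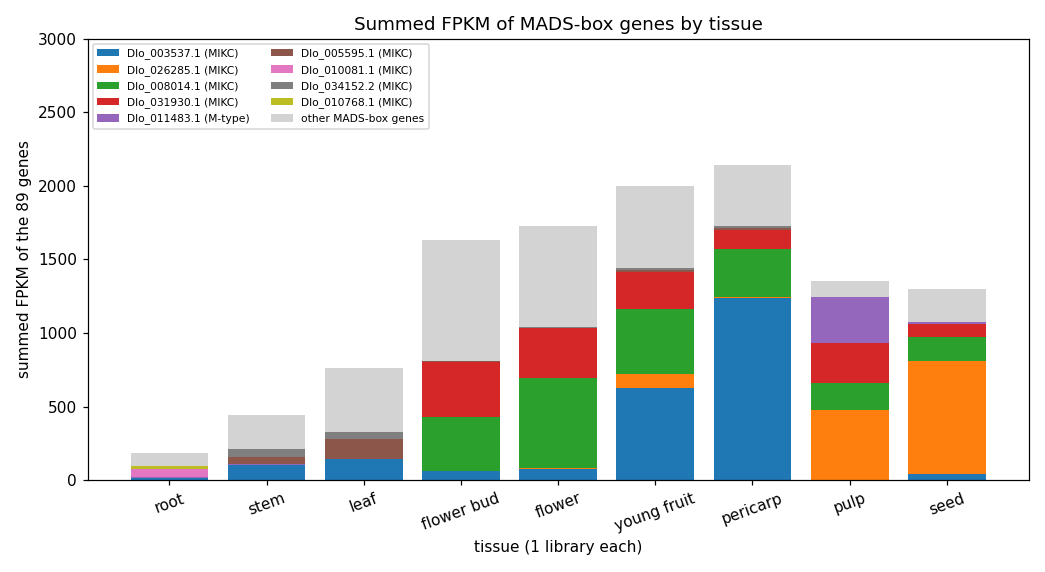
Summed FPKM of the 89 MADS-box genes in each tissue (vertical axis), 1 library per tissue, with coloured segments for the genes that ranked first or second in some tissue and grey for the rest. The bars of the 6 floral and fruit tissues, between 1300.0 and 2146 FPKM, stand above those of root, stem and leaf. The first-ranked gene is Dlo_003537.1 in pericarp and Dlo_026285.1 in both pulp and seed.

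A group of 3 MIKC genes was above 10 FPKM in every floral and fruit tissue and at 1.00 FPKM or less in root, stem and leaf. Dlo_008014.1 was at 616 FPKM in flower, 444 in young fruit, 366 in flower bud, 325 in pericarp, 187 in pulp and 168 in seed, against 0.24 in root and 0 in stem and leaf. Dlo_031930.1 was at 376 FPKM in flower bud, 336 in flower, 268 in pulp, 250.4 in young fruit and 133 in pericarp, with 89.4 in seed, against 0.24 in root, 0.69 in stem and 1.00 in leaf. Dlo_021466.1 reached 272 FPKM in flower bud and 240.0 in flower, and then 199 in young fruit and 78.0 in pericarp, with 12.7 in pulp, 24.1 in seed, 0.76 in root and 0 in stem and leaf. The 3 genes fell apart in pulp and seed, where Dlo_021466.1 was lower than Dlo_031930.1 and Dlo_008014.1. By the choice of the group, their lowest value in a floral or fruit tissue was above every value in root, stem and leaf. The order of flower bud and flower for Dlo_031930.1 and Dlo_021466.1 rested on differences of 0.16 and 0.18 in log2(FPKM + 1) and turned around with median-ratio scaling.

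The most abundant member had its highest value in pericarp, the fruit rind. Dlo_003537.1 was at 1241 FPKM in pericarp and 626 in young fruit, followed by 143 in leaf, 105 in stem, 78.5 in flower, 58.6 in flower bud, 43.7 in seed, 17.0 in root and 3.38 in pulp. Its pericarp value lay above that of 99.8% of all genes in that library, and it was 367 times the value in pulp, the tissue that the rind encloses. Unlike the 3 genes above, it was above 10 FPKM in all vegetative tissues. It was also the MADS-box gene with the highest FPKM in stem, leaf and young fruit.

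A second MIKC gene with its highest value in pericarp was Dlo_031156.1, at 201 FPKM there and 130.2 in young fruit. It was at 103 in flower bud and 61.4 in flower, then 8.60 in seed, 0.85 in leaf, 0.27 in pulp and 0 in root and stem. Dlo_030807.1 has a MADS-box and a K-box domain, and its best match among curated proteins is Arabidopsis AGL1 (SHATTERPROOF1), which in Arabidopsis acts in carpel and ovule identity and in the zone where the dry fruit opens. It was at 109 FPKM in young fruit, 40.7 in pericarp, 28.1 in seed, 11.9 in leaf and 11.8 in flower bud, and then 4.22 in flower, 0.28 in pulp, 0.24 in stem and 0 in root. All 3 genes thus had high values in young fruit and pericarp and values of 3.38 FPKM or less in pulp. Dlo_003028.1 had its highest value in pericarp too, at 10.4 FPKM, with 6.49 in flower, 5.88 in flower bud, 5.16 in stem, 0.29 in leaf and 0 in the other 4 tissues, young fruit among them. Dlo_016963.1 was highest in young fruit, at 11.98 FPKM, with 7.10 in flower bud, 3.63 in pulp, 3.56 in seed, 2.23 in root, 2.05 in flower and in pericarp, and 0 in stem and leaf.

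Besides genes of the floral and fruit group above, seed and pulp shared 1 abundant MIKC gene. It had a lower value in young fruit and values under 4 FPKM elsewhere. Dlo_026285.1 was at 763 FPKM in seed, 473 in pulp and 92.5 in young fruit, against 3.62 in pericarp, 1.38 in flower bud, 1.07 in flower and 0 in root, stem and leaf. Between pericarp and pulp it therefore ran opposite to Dlo_003537.1, which was high in pericarp and low in pulp. Both genes were higher in seed than in pulp. Further MIKC genes with their highest value in seed were less abundant. Dlo_031929.1 was at 55.9 FPKM in seed, 36.2 in leaf, 24.7 in young fruit, 22.3 in stem and in flower, 20.9 in flower bud, 9.5 in pericarp, 5.11 in pulp and 2.19 in root, the most even profile among the MIKC genes. Dlo_028609.1 was at 14.9 FPKM in seed, 7.74 in flower, 6.89 in flower bud, 4.51 in pulp, 1.61 in root, 0.44 in stem, 0.32 in leaf, 0.21 in young fruit and 0 in pericarp. Dlo_002268.1 was at 8.76 FPKM in seed and at 0.55 in pulp, 0.23 in young fruit and 0.22 in flower bud, and was listed at 0 elsewhere.

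A set of 4 MIKC genes marked stem and leaf. Dlo_005595.1 was at 132 FPKM in leaf and 48.0 in stem, with 15.5 in young fruit, 14.8 in pericarp, 6.06 in flower bud, 4.94 in flower, 1.44 in root, 0.22 in seed and 0 in pulp. Dlo_009139.1 was at 126 FPKM in leaf and 41.9 in stem, with 4.28 in flower bud, 0.33 in flower and 0 in the other 5 tissues. Dlo_017296.1 was at 60.3 FPKM in leaf and 14.4 in stem, with 1.97 in root, 1.21 in pericarp and 1.20 in young fruit, then 0.58 in flower bud and 0.27 in flower, and 0 in pulp and seed. The fourth, Dlo_034152.2, was nearly level between stem and leaf, at 56.2 and 53.6 FPKM, with 14.3 in young fruit, 11.9 in pericarp, 2.72 in root and 1.40 in flower bud, then 0.74 in flower and 0.17 in seed, and 0 in pulp. None of the 4 was above 0 in pulp, and stem and leaf held between 77.9% and 97.3% of each gene's summed FPKM.

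Root had its own MIKC genes, with almost nothing in the other organs. Dlo_010081.1 was at 56.6 FPKM in root, 0.45 in seed and 0.26 in flower bud, and was listed at 0 in the other 6 tissues, so that root held 98.8% of its summed FPKM. Dlo_010768.1 was at 17.9 FPKM in root and at 0.37 in seed, 0.27 in pericarp and 0.23 in young fruit. Dlo_000528.1 had a value above 0 in root alone, at 1.12 FPKM, and was the least abundant MIKC gene. Dlo_010081.1 and Dlo_010768.1 were also the 2 MADS-box genes with the highest FPKM in root.

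Several MIKC genes were high in flower bud and lower in the open flower. Dlo_004585.1 was at 97.2 FPKM in flower bud and 24.4 in flower, and at 0.21 in seed with 0 elsewhere, a ratio of 3.98 between bud and flower. Dlo_026514.1 was at 23.4 FPKM in flower bud, 12.9 in flower, 5.90 in stem, 0.36 in leaf and 0 elsewhere. Dlo_008860.1 was at 12.4 FPKM in flower bud, 7.04 in seed, 4.12 in flower, 1.44 in root and 0 elsewhere. These 3 genes were listed at 0 in young fruit, pericarp and pulp. Dlo_025737.1 was at 6.16 FPKM in flower bud, 1.66 in flower and 0.13 in leaf. Dlo_026071.1 went the other way, with 3.71 FPKM in flower, 1.34 in leaf, 1.23 in stem, 1.19 in young fruit, 0.59 in pericarp, 0.57 in flower bud and 0 in root, pulp and seed.

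**Figure D2:**
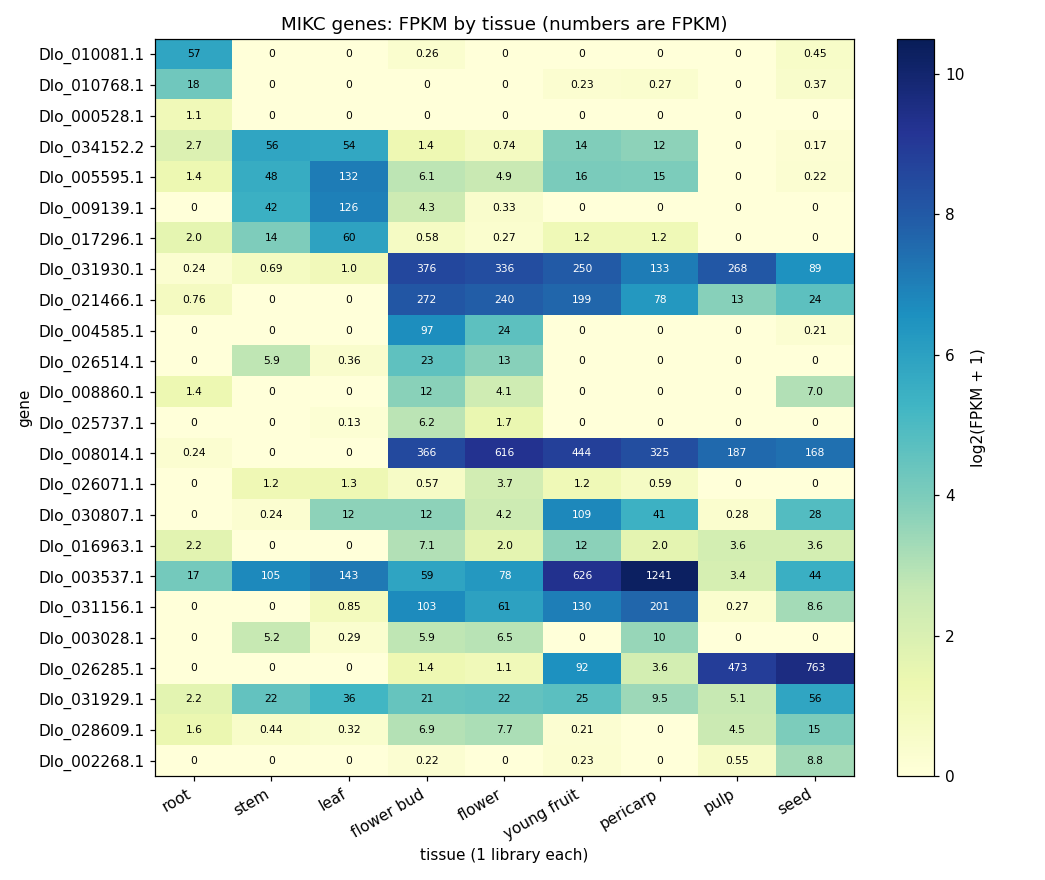
FPKM of the 24 MIKC genes (rows) in the 9 tissues (columns, 1 library each), coloured by log2(FPKM + 1) with the FPKM printed in each cell and rows ordered by the tissue of the highest value. Blocks of root genes, stem and leaf genes, and genes of floral and fruit tissues are visible, with the darkest cells at 1241 FPKM for Dlo_003537.1 in pericarp and 763 for Dlo_026285.1 in seed.

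The 12 most abundant M-type genes included pulp genes, floral genes, stem and leaf genes, a root gene and a gene of all tissues, whereas no MIKC gene was highest in pulp. The most abundant, Dlo_011483.1, was a pulp gene, at 316 FPKM in pulp, 12.5 in seed, 1.03 in young fruit, 0.79 in pericarp, 0.63 in stem, 0.43 in flower, 0.35 in root, 0.15 in flower bud and 0 in leaf. Its pulp value was 25.3 times that in seed. Dlo_019293.1 had the same order of the leading tissues at a lower level, with 68.6 FPKM in pulp, 6.33 in seed, 1.88 in root, 0.55 in young fruit, 0.32 in leaf, 0.23 in pericarp, 0.05 in stem and 0 in flower bud and flower. These were the only 2 of the 56 MADS-box genes at 1 FPKM or more that were highest in pulp. That share of 3.57% was below the 7.76% of other transcription factor genes and the 11.6% of all genes.

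A floral set of M-type genes was listed at 0 in root, stem and leaf. Dlo_003535.1 was at 136 FPKM in flower, 130.3 in flower bud, 18.6 in pericarp and 11.8 in young fruit, and was listed at 0 in the other 5 tissues. Dlo_017293.1 was at 71.5 FPKM in flower, 40.0 in flower bud, 7.75 in seed and 3.12 in pericarp, with 0 elsewhere. Dlo_026068.1 was at 36.0 FPKM in flower and 20.4 in flower bud, with 0 in the other 7 tissues. The ratio of flower to flower bud was 1.04, 1.79 and 1.76 for these 3 genes.

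Leaf and stem had M-type genes of their own. Dlo_021693.1 was at 66.2 FPKM in leaf, 22.2 in stem and 0 in the other 7 tissues. Dlo_009146.1 was at 30.03 FPKM in leaf, 9.34 in stem, 0.61 in flower bud and 0 elsewhere. Dlo_002935.1 was broader, at 58.2 FPKM in leaf, 34.7 in stem, 28.2 in young fruit, 23.9 in pericarp, 23.2 in flower, 14.0 in flower bud, 5.74 in root and 0 in pulp and seed. Highest in stem were Dlo_006998.1 and Dlo_002044.1. Dlo_006998.1 was at 22.5 FPKM in stem, 8.14 in young fruit, 7.22 in root, 4.17 in pericarp, 3.46 in leaf, 0.76 in seed, 0.55 in pulp, 0.44 in flower bud and 0.41 in flower. Dlo_002044.1 was at 18.0 FPKM in stem, 7.28 in seed, 4.66 in root, 0.63 in flower bud, 0.39 in pulp, 0.33 in pericarp and 0 in leaf, flower and young fruit.

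Of the 12 most abundant M-type genes, the remaining 2 were a root gene and a gene of all tissues. Dlo_027925.1 was at 16.9 FPKM in root, 1.11 in seed, 0.57 in leaf and 0.44 in young fruit, at 0.26 in pulp, 0.22 in flower bud and 0.21 in flower, and at 0 in stem and pericarp. Dlo_026196.1 was at 26.0 FPKM in seed, 17.2 in flower bud, 12.6 in young fruit, 11.7 in flower, 10.7 in pericarp, 9.97 in stem, 7.53 in root, 2.67 in pulp and 1.92 in leaf. It was the M-type gene that stayed at 1 FPKM or more in all 9 tissues. The other 20 M-type genes that reached 1 FPKM had highest values between 1.03 FPKM (Dlo_025314.1, in root) and 13.8 FPKM (Dlo_021696.1, in leaf). Dlo_011017.1, an M-type gene annotated with a MADS-box domain and matched to a MADS-box gene of the moss *Physcomitrella*, had 0.38 FPKM in seed and 0 in the other 8 tissues.

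**Figure D3:**
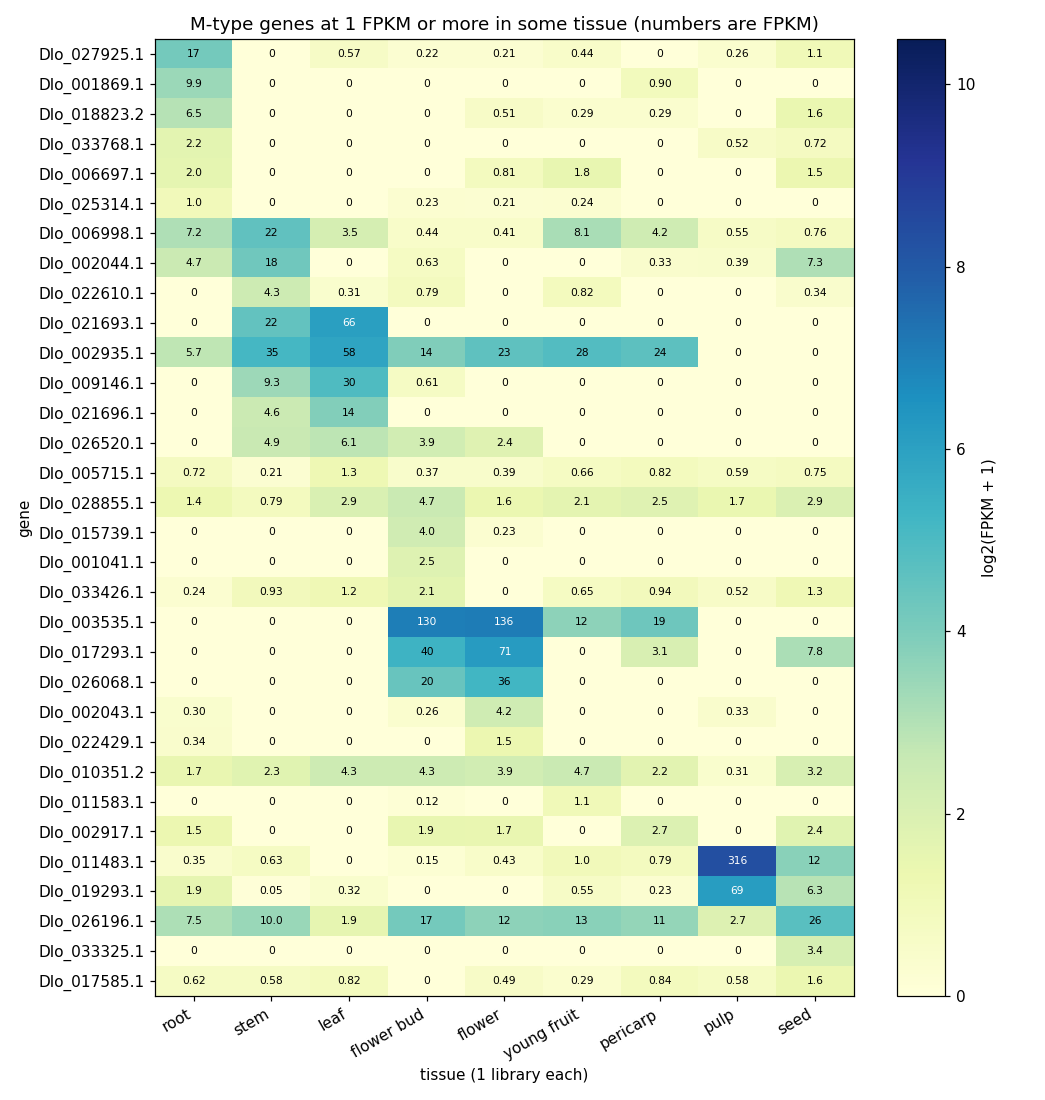
FPKM of the 32 M-type genes that reached 1 FPKM in some tissue (rows) in the 9 tissues (columns, 1 library each), coloured by log2(FPKM + 1) with the FPKM printed in each cell and rows ordered by the tissue of the highest value. Most cells are at or near 0, and the darkest are Dlo_011483.1 in pulp (316 FPKM) and Dlo_003535.1 in flower and flower bud (136 and 130.3 FPKM).

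Floral tissues held the highest value of 8 of the 24 MIKC genes (33.3%) and 9 of the 32 M-type genes at 1 FPKM or more (28.1%). The same share was 17.6% among 1237 other transcription factor genes and 15.9% among all genes. At 5 FPKM or more, floral tissues held the highest value of 7 of 22 MIKC genes and 3 of 16 M-type genes. The M-type share was thus lower among the more abundant genes. Root, stem or leaf held the highest value of 7 MIKC genes (29.2%) and 15 M-type genes (46.9%), against 37.8% of all genes. For the 4 fruit tissues the numbers were 9 MIKC genes (37.5%) and 8 M-type genes (25.0%), against 46.3% of all genes. Concentration in 1 tissue was measured by tau, which is 0 for equal values of log2(FPKM + 1) in every tissue and 1 for a gene seen in 1 tissue. The median tau was 0.71 for MIKC genes, 0.882 for M-type genes, 0.442 for other transcription factor genes and 0.393 for all genes, each over genes at 1 FPKM or more. A tau of 0.9 or more was reached by 6 MIKC genes and 10 M-type genes, against 9.02% of all genes. The 6 MIKC genes were the 3 root genes, Dlo_004585.1 and Dlo_025737.1 of flower bud, and Dlo_002268.1 of seed. Low values raise tau because they are often listed at 0 in the other tissues, and M-type genes were the lower class.

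Among the genes of stem and leaf, 3 had a ratio of leaf to stem between 2.985 and 3.004, and 1 more lay near them. The ratio of FPKM in leaf to that in stem was 3.001 for the MIKC gene Dlo_009139.1, and 2.985, 3.004 and 3.215 for the M-type genes Dlo_021693.1, Dlo_021696.1 and Dlo_009146.1. Dlo_021696.1 was at 13.8 FPKM in leaf, 4.59 in stem and 0 in the other 7 tissues, so the levels of these genes ranged more widely than their ratios. Among 3961 genes with their highest value in leaf or stem at 5 FPKM or more, the median ratio was 1.49, and 2.70% had a ratio between 2.9 and 3.3. Both the group and this window, drawn around it, were chosen after the values were seen, and no test was made. Other stem and leaf members had other ratios, such as 4.20 for Dlo_017296.1, 2.75 for Dlo_005595.1, 1.68 for Dlo_002935.1 and 0.954 for Dlo_034152.2.

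**Figure D4:**
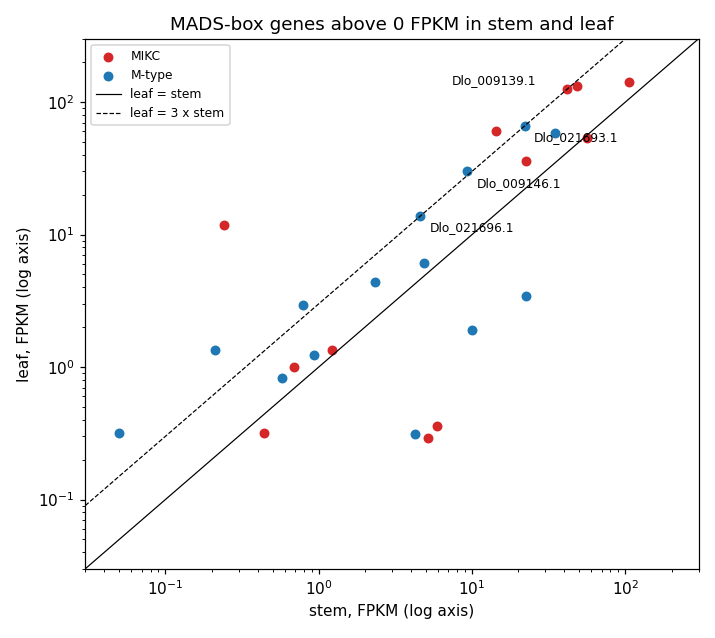
FPKM in leaf against FPKM in stem, both on log axes, for the 26 MADS-box genes that were above 0 in both tissues and reached 1 FPKM in some tissue, 1 library per tissue. The solid line marks equal values and the dashed line a leaf value 3 times that in stem, and the named genes Dlo_009139.1, Dlo_021693.1, Dlo_009146.1 and Dlo_021696.1 lie on or near the dashed line, with Dlo_005595.1 (2.75) also near it.

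The ID numbers of those genes also lie close together, Dlo_009139.1 with Dlo_009146.1 and Dlo_021693.1 with Dlo_021696.1. Pearson's r of log2(FPKM + 1) over the 9 tissues was 0.983 for the first pair and 0.997 for the second, given as a description over 9 libraries that both genes share. These genes were picked for a like ratio of leaf to stem and were at or near 0 in most other tissues. A high r therefore follows from that choice and adds nothing to it. Whether near ID numbers mean near genome positions was not checked. In the list of 109 genes there were 12 runs of consecutive ID numbers, and the run with the highest values was the MIKC pair Dlo_031929.1 and Dlo_031930.1, whose profiles differed (r = 0.161), the first being highest in seed and the second in flower bud. Near ID numbers went with like profiles in the pairs picked for their ratio, and the other pairs were mixed. Dlo_026068.1 (M-type) and Dlo_026071.1 (MIKC) were both highest in flower, with an r of 0.548. Dlo_026514.1 (MIKC, highest in flower bud) and Dlo_026520.1 (M-type, highest in leaf) had an r of 0.697. The M-type genes Dlo_002043.1 (highest in flower) and Dlo_002044.1 (highest in stem) had an r of −0.314. Dlo_017293.1 (M-type, highest in flower) and Dlo_017296.1 (MIKC, highest in leaf) had an r of −0.48. Dlo_003535.1 (M-type, highest in flower) and Dlo_003537.1 (MIKC, highest in pericarp) had an r of 0.383.

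Of the M-type genes whose ID numbers lay within 10 of a MIKC gene, some were abundant and others were not. All 8 such genes of the list were in the table, 5 reached 5 FPKM, and the other 3 stayed below 1 FPKM, namely Dlo_003534.1 (0.87), Dlo_034153.1 (0.53) and Dlo_009144.1 (0.41). For the 8 genes the median of the highest values was 18.1 FPKM. Of the 57 M-type genes in the table with more distant numbers, 11 reached 5 FPKM, and the median was 0.88 FPKM. The limit of 10 was chosen after the values were seen.

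Gene families that the study lists as changed in size in longan held 14 M-type members in the table. Of these, 6 reached 1 FPKM (42.9%), near the share of all M-type genes (49.2%). The study's published list of supplements calls this set of families contracted, and its original submission calls it expanded. A family of 10 longan genes without an Arabidopsis gene held 8 M-type members, all above 0, of which 4 reached 1 FPKM. It included both pulp genes, Dlo_011483.1 and Dlo_019293.1, together with Dlo_018823.2, highest in root at 6.54 FPKM, and Dlo_022610.1, highest in stem at 4.26 FPKM. A second family, with 1 Arabidopsis gene (AGL57, a type I gene), held 7 M-type members, of which 3 were in the table. In it, Dlo_015739.1 and Dlo_001041.1 were highest in flower bud, at 4 and 2.54 FPKM. One more family, whose listing is held here only in part, had 3 members with values of up to 0.40 FPKM. How reads that match several near copies were shared out is not given in the sources used here, so values of close copies are uncertain.

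For the 3 MIKC genes with the highest FPKM, the 3 nearest profiles were sought among 1293 transcription factor genes at 1 FPKM or more. Likeness was measured by Pearson's r of log2(FPKM + 1) over the 9 tissues. The best of so many genes over 9 tissues have a high r by selection, so these are a description. Profiles nearest to Dlo_008014.1 were those of Dlo_031930.1 (r = 0.987) and Dlo_021466.1 (r = 0.948), both MIKC, followed by the bZIP gene Dlo_015386.1 (r = 0.86). Nearest to Dlo_003537.1 were the GATA gene Dlo_007275.1 (r = 0.931), the DBB gene Dlo_024129.1 (r = 0.918) and the WRKY gene Dlo_015501.2 (r = 0.917). The last of these was at 1193 FPKM in pericarp and 632 in young fruit, close in level to Dlo_003537.1 there. Nearest to Dlo_026285.1 were the B3 genes Dlo_023245.1 (r = 0.963) and Dlo_023259.1 (r = 0.953) and the GRF gene Dlo_009201.2 (r = 0.939), whose highest values were 8.65, 6.34 and 11.5 FPKM.

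Pairs of tissues were then compared, the 11 pairs that the study names and young fruit with pericarp. A gene was counted as higher in a tissue when log2(FPKM + 1) differed by 1 or more, among genes above 0 in either tissue. This is a limit on size and not a test, and comparisons that share a tissue share its library. The pseudocount of 1 FPKM makes the differences of low genes smaller than their ratios. All 24 MIKC genes and 30 of the 65 M-type genes passed the limit in at least 1 of the 12 comparisons, against 90.4% of all genes at 1 FPKM or more, and none did in all 12. Those 30 were among the 32 M-type genes that reached 1 FPKM, so the count of either class was near the background. The MIKC gene Dlo_030807.1 passed it in 10 comparisons, the most of any member.

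**Figure D5:**
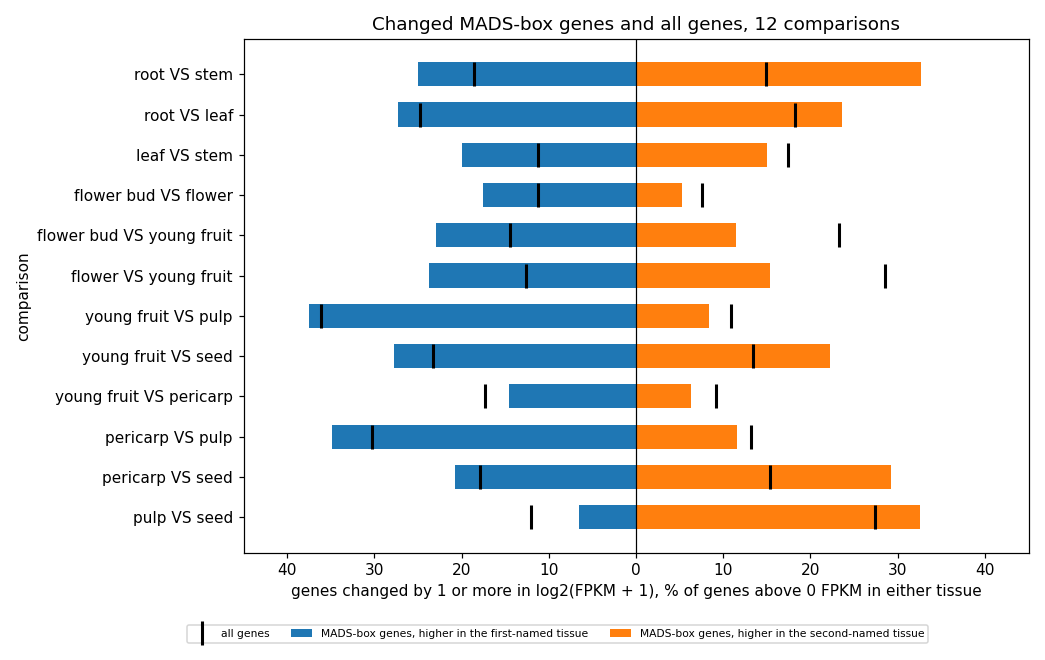
Share of MADS-box genes that differed by 1 or more in log2(FPKM + 1) in each of the 12 comparisons, as a percentage of those above 0 FPKM in either tissue (horizontal axis), to the left for genes higher in the first-named tissue and to the right for the second. Black ticks give the same share over all genes, and the MADS-box bars reach past the ticks on both sides in root VS stem, root VS leaf, young fruit VS seed and pericarp VS seed.

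Root and the shoot organs differed in members of their own on each side. In root VS stem, 13 of 52 members were higher in root (25.0%, against 18.6% of all genes) and 17 were higher in stem (32.7%, against 14.9%). MIKC genes made up 5 of the first and 9 of the second. The largest differences in log2(FPKM + 1) were 5.85 for Dlo_010081.1, higher in root, and 5.42 for Dlo_009139.1, higher in stem, each listed at 0 on the other side. The median difference, stem minus root, was 0.28 over members and −0.04 over all genes.

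In root VS leaf, 15 of 55 members were higher in root (27.3%, against 24.8% of all genes) and 13 were higher in leaf (23.6%, against 18.2%). Higher in leaf were 8 MIKC and 5 M-type genes, and higher in root 5 MIKC and 10 M-type genes. The order of the 2 counts turned to 5 and 12 with a pseudocount of 5 FPKM, to 6 and 12 at a 4-fold limit and to 25 and 27 with a pseudocount of 0.1 FPKM. Dlo_010081.1 again led on the root side, and Dlo_009139.1 was higher in leaf by 6.98 in log2(FPKM + 1). The median difference, leaf minus root, was 0.24 over members and −0.05 over all genes.

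In leaf VS stem, 8 of 40 members were higher in leaf (20%, against 11.3% of all genes) and 6 were higher in stem (15.0%, against 17.4%). At a 4-fold limit the order turned, to 1 in leaf and 5 in stem. Dlo_030807.1, whose best match is Arabidopsis AGL1, differed most towards leaf, by 3.37 in log2(FPKM + 1), and the M-type gene Dlo_002044.1 most towards stem, by 4.25. The median difference, stem minus leaf, was −0.25 over members and 0.03 over all genes.

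Between the floral stages, more members were higher in flower bud than in flower. In flower bud VS flower, 10 of 57 members were higher in flower bud (17.5%, against 11.3% of all genes) and 3 were higher in flower (5.26%, against 7.51%). At a 4-fold limit there was 1 on each side. MIKC genes were 6 of the 10 and 1 of the 3, Dlo_026071.1. The largest differences were small compared with other pairs, 2.02 in log2(FPKM + 1) for Dlo_015739.1 towards flower bud and 2.04 for Dlo_002043.1 towards flower, where it was at 4.19 FPKM against 0.26. The median difference, flower minus flower bud, was −0.16 over members and −0.15 over all genes.

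For the floral stages and young fruit, the counts of members past the limit and the median over members pointed opposite ways. In flower bud VS young fruit, 14 of 61 members were higher in flower bud (23.0%, against 14.5% of all genes) and 7 were higher in young fruit (11.5%, against 23.3%). Dlo_004585.1 led towards flower bud by 6.62 in log2(FPKM + 1), and Dlo_026285.1 towards young fruit by 5.30. The median difference, young fruit minus flower bud, was 0.12 over members and 0.24 over all genes.

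In flower VS young fruit, 14 of 59 members were higher in flower (23.7%, against 12.6% of all genes) and 9 were higher in young fruit (15.3%, against 28.5%). The order turned to 21 and 25 with a pseudocount of 0.1 FPKM and to 7 and 8 with one of 5 FPKM. MIKC genes were level, with 7 each way, and M-type genes were 7 towards flower and 2 towards young fruit. The M-type gene Dlo_017293.1 was higher in flower by 6.18 in log2(FPKM + 1), and Dlo_026285.1 was higher in young fruit by 5.50. The median difference, young fruit minus flower, was 0.23 over members and 0.40 over all genes.

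MIKC genes were more often higher in young fruit than in pulp or seed, but for seed only narrowly at a 4-fold limit. In young fruit VS pulp, 18 of 48 members were higher in young fruit (37.5%, against 36.1% of all genes) and 4 were higher in pulp (8.33%, against 10.9%), so the shares were near those of all genes. Among the 16 MIKC genes compared, 11 were higher in young fruit and 2 in pulp, or 8 and 2 under median-ratio scaling. Dlo_003537.1 was higher in young fruit by 7.16 in log2(FPKM + 1) and Dlo_011483.1 higher in pulp by 7.29. The median difference, pulp minus young fruit, was −0.36 over members, −1.37 over MIKC genes and −0.55 over all genes.

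In young fruit VS seed, 15 of 54 members were higher in young fruit (27.8%, against 23.3% of all genes) and 12 were higher in seed (22.2%, against 13.4%). The order turned to 12 and 14 under median-ratio scaling and to 8 and 9 at a 4-fold limit. MIKC genes were 11 of the 15, and M-type genes 7 of the 12. The largest differences in log2(FPKM + 1) were 4.87 for the M-type gene Dlo_002935.1, listed at 0 in seed, and 3.72 for Dlo_028609.1, higher in seed. The median difference, seed minus young fruit, was −0.12 over members and −0.21 over all genes.

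In young fruit VS pericarp, 7 of 48 members were higher in young fruit (14.6%, against 17.3% of all genes) and 3 were higher in pericarp (6.25%, against 9.16%). At a 4-fold limit there were 2 on each side. Dlo_026285.1 differed most towards young fruit, by 4.34 in log2(FPKM + 1), and Dlo_003028.1 most towards pericarp, by 3.51. Dlo_003537.1 was 1.98 times as high in pericarp as in young fruit and lay just under the limit. The median difference, pericarp minus young fruit, was −0.28 over members and −0.21 over all genes.

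Pericarp and pulp, neighbouring layers of the fruit, held the largest single difference. In pericarp VS pulp, 15 of 43 members were higher in pericarp (34.9%, against 30.3% of all genes) and 5 were higher in pulp (11.6%, against 13.2%). Dlo_003537.1 was higher in pericarp by 8.15 in log2(FPKM + 1), and Dlo_011483.1 was higher in pulp by 7.47. The median difference, pulp minus pericarp, was −0.36 over members and −0.36 over all genes.

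In pericarp VS seed, 10 of 48 members were higher in pericarp (20.8%, against 17.9% of all genes) and 14 were higher in seed (29.2%, against 15.4%). With a pseudocount of 5 FPKM there were 8 on each side. The seed side had 9 M-type and 5 MIKC genes, and the pericarp side 3 M-type and 7 MIKC genes. Dlo_003537.1 was higher in pericarp by 4.80 in log2(FPKM + 1), and Dlo_026285.1 was higher in seed by 7.37. The median difference, seed minus pericarp, was 0.26 over members and −0.04 over all genes.

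In pulp VS seed, 3 of 46 members were higher in pulp (6.52%, against 12% of all genes) and 15 were higher in seed (32.6%, against 27.4%). Towards pulp these were the M-type genes Dlo_011483.1, by 4.55 in log2(FPKM + 1), and Dlo_019293.1, and the MIKC gene Dlo_031930.1. Dlo_030807.1 led towards seed, by 4.51. The median difference, seed minus pulp, was 0.50 over members and 0.30 over all genes.

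Other floral regulators of the list, 10 genes of the LFY, NOZZLE, ULT and YABBY types, were set beside the MADS-box genes. LFY is known in Arabidopsis as an activator of MIKC floral identity genes, NOZZLE for early stamen and ovule development, and YABBY genes for the lower face of lateral organs. Their summed FPKM was highest in flower, at 612, and seed, at 592, followed by 319.7 in pulp, 223 in flower bud and 222 in young fruit, and then 128 in stem, 104 in leaf, 100.3 in pericarp and 52.5 in root. Pericarp, where the MADS-box sum was highest with 57.8% of it from Dlo_003537.1, was thus among the lower tissues for this list. YABBY genes supplied most of the sum in every tissue but root, such as 516 FPKM in flower and 568 in seed. In root the ULT gene Dlo_006134.1 was at 46.4 FPKM. In flower bud VS flower, 1 of 9 was higher in flower bud (against 11.3% of all genes) and 4 were higher in flower (against 7.51%). In flower VS young fruit, 4 of 9 were higher in flower (against 12.6% of all genes) and 1 in young fruit (against 28.5%).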

How the data were processed

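The authors sequenced 1 RNA library per tissue on an Illumina HiSeq 2000, removed adaptors, low-quality and contaminating reads, aligned the rest to the longan draft genome (TopHat2 2.0.10 per the submitters' processing notes) and deposited FPKM values with 2 decimals. The program behind the FPKM values is not given in the sources used here. Values were used as deposited, with Python 3.11.15, numpy 2.4.6 and pandas 2.3.3. Depth was inferred from steps of low FPKM values (0.2 to 2). Genes differed between tissues at 1 or more in log2(FPKM + 1). No test was made. The functions were tested on simulated data.

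Members and lists were chosen with earlier results of these data known. Named were all MIKC genes at 1 FPKM or more, the 12 highest M-type genes, 2 annotated members and the highest member per tissue. Also named were the largest difference each way per comparison, the 3 genes most like each of 3 MIKC genes, and consecutive IDs. Members of the gene families listed as changed in size were named too. Alternatives were pseudocounts of 0.1 and 5 FPKM, a 4-fold limit, other filters, other forms of tau and median-ratio scaling over 12039 genes. Sequences were not used here.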

Additional observations from a re-analysis of the deposited data

How the results depend on the processing

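No paired analysis was possible because there was a single library for each tissue, and for the same reason no replicate could be left out. Counting genes at 1 FPKM or more in place of above 0 gave 9 MIKC genes in leaf, and 32 M-type genes in any tissue, 14 each in seed and root, 12 in flower bud, 11 each in flower and leaf, 10 in stem, 9 in young fruit, 8 in pericarp and 4 in pulp. M-type genes highest in flower bud or flower numbered 17 with no filter and 3 of 16 at 5 FPKM or more. Genes concentrated in 1 tissue numbered 10 MIKC and 20 M-type by tau without the log, 18 M-type at a tau of 0.8, and 4 M-type at 5 FPKM or more. With a pseudocount of 0.1 FPKM, the members past the limit numbered 47 in root VS stem, 52 in root VS leaf, 28 in leaf VS stem, 46 in flower VS young fruit, 45 in flower bud VS young fruit, 30 in flower bud VS flower, 40 in young fruit VS pulp, 47 in young fruit VS seed, 27 in young fruit VS pericarp, 35 in pericarp VS pulp and 38 in pulp VS seed. With one of 5 FPKM they numbered 18 in root VS stem, 17 in root VS leaf, 1 in flower bud VS flower, 15 in flower VS young fruit, 6 in young fruit VS pericarp and 13 in pericarp VS pulp. At 4-fold they numbered 19 in root VS stem, 18 in root VS leaf, 2 in flower bud VS flower, 6 in leaf VS stem, 15 in flower VS young fruit, 17 in young fruit VS seed and 4 in young fruit VS pericarp. Fewer genes pass a stricter limit by construction, and low genes set the counts at a small pseudocount. Under median-ratio scaling all 16 counts recomputed stayed within 1.5 times. Of 36 differences in log2(FPKM + 1) between a named gene's highest and next tissue, 6 moved by more. These were Dlo_008014.1 (0.47 to 0.985, flower minus young fruit), Dlo_026285.1 (0.689 to 0.448, seed minus pulp) and Dlo_003028.1 (0.601 to 0.319, pericarp minus flower). The others were Dlo_016963.1 (0.68 to 0.395), Dlo_034152.2 (0.067 to 0.164) and Dlo_003535.1 (0.057 to 0.257). Flower bud minus flower became −0.02 for Dlo_021466.1 and −0.039 for Dlo_031930.1. With a pseudocount of 5 FPKM, 7 of the 36 moved by more. Read depth behind single values is unknown, so values below 1 FPKM carry little weight.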
